A study of Mus musculus with 16 samples.

Results

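The polyamine synthesis and breakdown genes are 10 genes of 23221 symbols measured in muscle fibres of the mouse: Odc1, Azin1, Oaz1, Oaz2, Amd1, Amd2, Srm, Sms, Smox and Sat1. They were chosen by pathway membership, after measured differences between the groups compared here had been seen in an earlier analysis of the same libraries. Every difference, p-value and count below therefore describes these libraries and is no independent support for a change in the pathway. All 10 were listed in every table and all 10 passed the filter on low values in every comparison. Amd2, near the floor in old controls, passed it in the comparisons with that group only because the other group was higher.

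Polyamines (putrescine, spermidine and spermine) are small positively charged molecules that bind nucleic acids and are needed for growth and protein synthesis. Ornithine decarboxylase makes putrescine, and 2 synthases add aminopropyl groups, supplied by S-adenosylmethionine decarboxylase, to give spermidine and then spermine. Acetylation by Sat1 marks polyamines for export or oxidation, and spermine oxidase, the product of Smox, turns spermine back into spermidine. In skeletal muscle Smox is known as a gene whose level falls in several forms of atrophy.

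RNA came from single fibres of the extensor digitorum longus, a fast hindlimb muscle, cleared of adherent mononucleated cells. The 16 libraries were from male C57BL/6 mice and made up 4 groups of 4. Mice called young were aged 4 months and those called old 22 months. Runners had free access to a wheel for 5 weeks, and controls of the same age were not given that treatment. The labels do not tell whether libraries of a group stand for separate animals, so each p-value weighs a difference against the spread between libraries. The libraries held 30.7 to 67.4 M assigned reads (1 M is 1000000 reads), with a median of 46.9 M. The label of muscle cells was checked against fibre markers, and 8 genes of fibre contraction and energy supply, among them Acta1 and Ckm, summed to between 120229 and 194397 reads per M assigned reads (RPM) per library. Markers of other cell types were far lower. Those of fibro-adipogenic progenitors summed to 0.316 to 14 RPM in young controls and 80 to 262 in young runners, and to 5.72 to 46.2 in old controls and 41.6 to 90.3 in old runners. The macrophage markers summed to between 8.65 and 57.4 RPM over the 16 libraries, most of it Cd68 (15.4 to 29.4 RPM in the group means), while Adgre1 was not listed in either table of runners against controls. The satellite cell markers summed to between 23.7 and 36.1 RPM, most of it Cdh15 (21.7 to 28.7 RPM in the group means), while Pax7 and Chodl were at 0 in all 4 old controls. Libraries carry the names of the deposited columns. The control Yc4 stood apart from the other 3 young controls in several members, and values without it are given where leaving it out moved a printed difference by more than 1.5 times or changed a call. Levels are normalised reads (reads divided by a factor for library size, on 1 scale over the 16 libraries). Differences are on the deposited log2 scale, in which low values are compressed.

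Amd1 and Amd2 share most of their sequence, which bears on how their reads can be assigned. Amd1 (chromosome 10, 40287458 to 40302186, minus strand, mm10 with the GENCODE M21 annotation) and Amd2 (chromosome 10, 35708675 to 35711892, minus strand, 1 exon) each hold a coding sequence of 1005 bases, and these are 99.9% identical. The only difference between them is G796C, counted from 1 at the A of the start codon, with the base of Amd1 first. The 60 coding bases from position 739 to 798 show it in capitals:
Amd1: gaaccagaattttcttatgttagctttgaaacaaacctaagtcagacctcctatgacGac
Amd2: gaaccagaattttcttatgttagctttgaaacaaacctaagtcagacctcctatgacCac
Of the distinct 50-base stretches of the Amd2 transcript, 85.7% occur in another annotated gene too, and 2715 of 3169 occur in Amd1. For Amd1 the share is 78.1%. No 50-base stretch of Smox and 2.72% of those of Sat1 occur elsewhere. The shares were 24.3% in Odc1, 21% in Oaz1 (chiefly its pseudogene) and 17.5% in Sms (chiefly its pseudogene). They were 7.42% in Oaz2, 4.83% in Azin1 (where the gene model Gm49077 overlaps its exons) and 2.01% in Srm.

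The bases before the RefSeq starts of Sat1 and Smox are shown because these genes had the widest differences between groups. GENCODE M21 starts Smox earlier, at 131491496, so by that annotation the Smox stretch printed below lies inside the gene, outside its exons. RefSeq start windows (GRCm38.p6) matched 8 of the 10 genes. GC boxes (GGGCGG on either strand, the site named for the factor Sp1) are in capitals in the 250 bases before the start of Sat1 (chrX:155216450-155216699, minus strand) and in the 110 bases near the start of Smox that lie in no annotated exon (chr2:131491654-131491763, plus strand):
Sat1: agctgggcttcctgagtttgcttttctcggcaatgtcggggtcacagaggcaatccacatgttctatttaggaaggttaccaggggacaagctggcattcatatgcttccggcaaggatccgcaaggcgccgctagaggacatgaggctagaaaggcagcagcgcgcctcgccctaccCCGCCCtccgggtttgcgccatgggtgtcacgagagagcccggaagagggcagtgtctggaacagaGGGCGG
Smox: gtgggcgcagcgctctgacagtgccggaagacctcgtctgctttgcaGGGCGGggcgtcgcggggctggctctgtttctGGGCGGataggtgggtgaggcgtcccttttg
The Sat1 window holds 2 GC boxes, and 16.7% of 32851 windows of that length hold at least as many. The whole 250-base window of Smox holds 6, as many as or more than which were found in 0.886% of windows, and 2 of the 6 lie in the stretch printed. A GC box occurred in 32.7% of all windows. The letters of the E-box (CACGTG, in 6.02% of windows), the TATA box (TATAAA, 12.4%), the CCAAT box (CCAAT, 33.8%), the cAMP response element (TGACGTCA, 1.55%) and the AP-1 site (TGANTCA, 6.75%) were searched on both strands and matched neither gene's window.

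Sat1, the acetyltransferase that opens polyamine breakdown (chromosome X, 155213132 to 155216449, minus strand), had the widest difference with running at both ages. Young controls held 21038 (Yc4), 24477 (Yc5), 26750 (Yc7) and 23594 (Yc8) normalised reads. Young runners held 9636 (Y1ex), 2440 (Y2ex), 1818 (Y3ex) and 5801 (Y4ex). Every young runner was below every young control, and the runners were spread far more widely among themselves. The group means were 23965 ± 2361 in young controls and 4924 ± 3596 in young runners (SD, n = 4), 4.87 times apart. On the deposited scale Sat1 fell by 2.52 with running in young mice (SE 0.42, limma adjusted p = 0.0361), and none of the other 10623 genes tested had a lower difference. The call was lost without the filter on low values (adjusted p = 0.0609) and without any 1 of Y2ex, Y3ex, Y4ex, Yc5, Yc7 or Yc8, while the difference stayed between -2.92 and -2.17 when libraries were left out in turn. Across all alternatives its adjusted p ran from 0.0141 to 0.134. Whether fewer cells of a type or less RNA per cell gave a lower level cannot be told apart in bulk RNA.

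In old mice Sat1 was lower in every runner too, without passing the test. Old controls held 14044 (Oc1), 13095 (Oc2), 18735 (Oc3) and 15472 (Oc4) normalised reads, and old runners 1280 (O1ex), 6328 (O2ex), 9243 (O3ex) and 1872 (O4ex). The groups did not overlap, and old runners fell into a low pair (O1ex and O4ex) and a higher pair (O2ex and O3ex). The means were 15337 ± 2467 and 4681 ± 3785 (SD, n = 4), 3.28 times apart. The difference was -1.96 (SE 0.47, limma adjusted p = 0.11), and again no other gene tested was lower. The change with running differed between the ages by 0.55 (SE 0.69, limma adjusted p = 0.948), which the spread between libraries does not resolve. Without running, old mice had less Sat1 than young mice in all 4 libraries, a difference of -0.62 (SE 0.15, adjusted p = 0.198). Among runners the ages overlapped, with a difference of -0.16 (SE 0.59, adjusted p = 1), which turned positive without O1ex (0.25), without O4ex (0.11) and without Y1ex (0.23).

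Smox, the spermine oxidase (chromosome 2, 131491496 to 131525922, plus strand), differed most between controls of the 2 ages. Young controls held 12921 (Yc4), 21248 (Yc5), 24777 (Yc7) and 24487 (Yc8) normalised reads. Old controls held 6409 (Oc1), 7706 (Oc2), 7301 (Oc3) and 4664 (Oc4). The ages did not overlap, although Yc4 lay well below the other 3 young controls. The means were 20858 ± 5528 in young and 6520 ± 1351 in old controls (SD, n = 4), 3.2 times apart. On the deposited scale Smox was different by -1.58 in old controls (SE 0.23, limma adjusted p = 0.0369), and 8 of the 9831 genes tested had a lower difference. The call was kept without Yc4 (-1.79, adjusted p = 0.00468) and in a voom fit of the recovered reads (adjusted p = 0.00105). It was lost without the filter (0.0805), without the variance trend (0.0542) and without any other single library, where the largest adjusted p was 0.194. Of the 2 macrophage markers tested in this comparison, Mrc1 was lower in old controls as well (-1.56, limma adjusted p = 0.0448). Its means were 6.43 RPM in young and 0.291 RPM in old controls. Mrc1 passed the filter on low values only through the young controls, which fixed its sign. Cd68 differed by -0.31 (adjusted p = 0.825). Cd163, not tested, went the other way, at 0.97 RPM in young and 1.62 RPM in old controls. The summed macrophage markers overlapped (13.6 to 55.4 and 8.65 to 27.6 RPM), and their part in the lower Smox was not tested.

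Running went with opposite signs for Smox at the 2 ages. Young runners held 9046 (Y1ex), 9527 (Y2ex), 13533 (Y3ex) and 12684 (Y4ex) normalised reads, with a mean of 11198 ± 2242 (SD, n = 4). Yc4 lay inside this range and the other 3 young controls lay above it. The difference in young mice was -0.87 (SE 0.23, limma adjusted p = 0.102), and without Yc4 Smox fell by 1.08 (adjusted p = 0.0213). A voom fit gave -0.87 with an adjusted p of 0.0338. Only these 2 of 13 alternatives passed, and the limma adjusted p ran up to 0.289. The difference ran from -1.08 to -0.77 when libraries were left out in turn. Old runners held 8903 (O1ex), 8853 (O2ex), 7185 (O3ex) and 8708 (O4ex) normalised reads, with a mean of 8412 ± 822 (SD, n = 4). The range of old controls overlapped that of old runners through O3ex alone, and the difference was 0.37 (SE 0.16, adjusted p = 0.264). The change with running was 1.24 higher in old than in young mice (SE 0.29, unadjusted p = 0.000568, limma adjusted p = 0.547), with a smaller p in 6 of the 9354 genes tested. Without Yc4 this difference of effects was 1.45 and passed the threshold (adjusted p = 0.0319). That was the only 1 of 21 alternatives in which it passed, and the limma adjusted p ran up to 0.986. The difference of effects ran from 1.10 to 1.45 when libraries were left out in turn. Between runners of the 2 ages Smox differed by -0.37 (SE 0.16, adjusted p = 0.982). The order of the group means was young controls, young runners, old runners and old controls, and of the neighbouring groups in that order only the runners of the 2 ages had ranges that did not overlap, by a gap from 8903 to 9046 that was closed on the deposited scale of that pair.

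**Figure D1:**
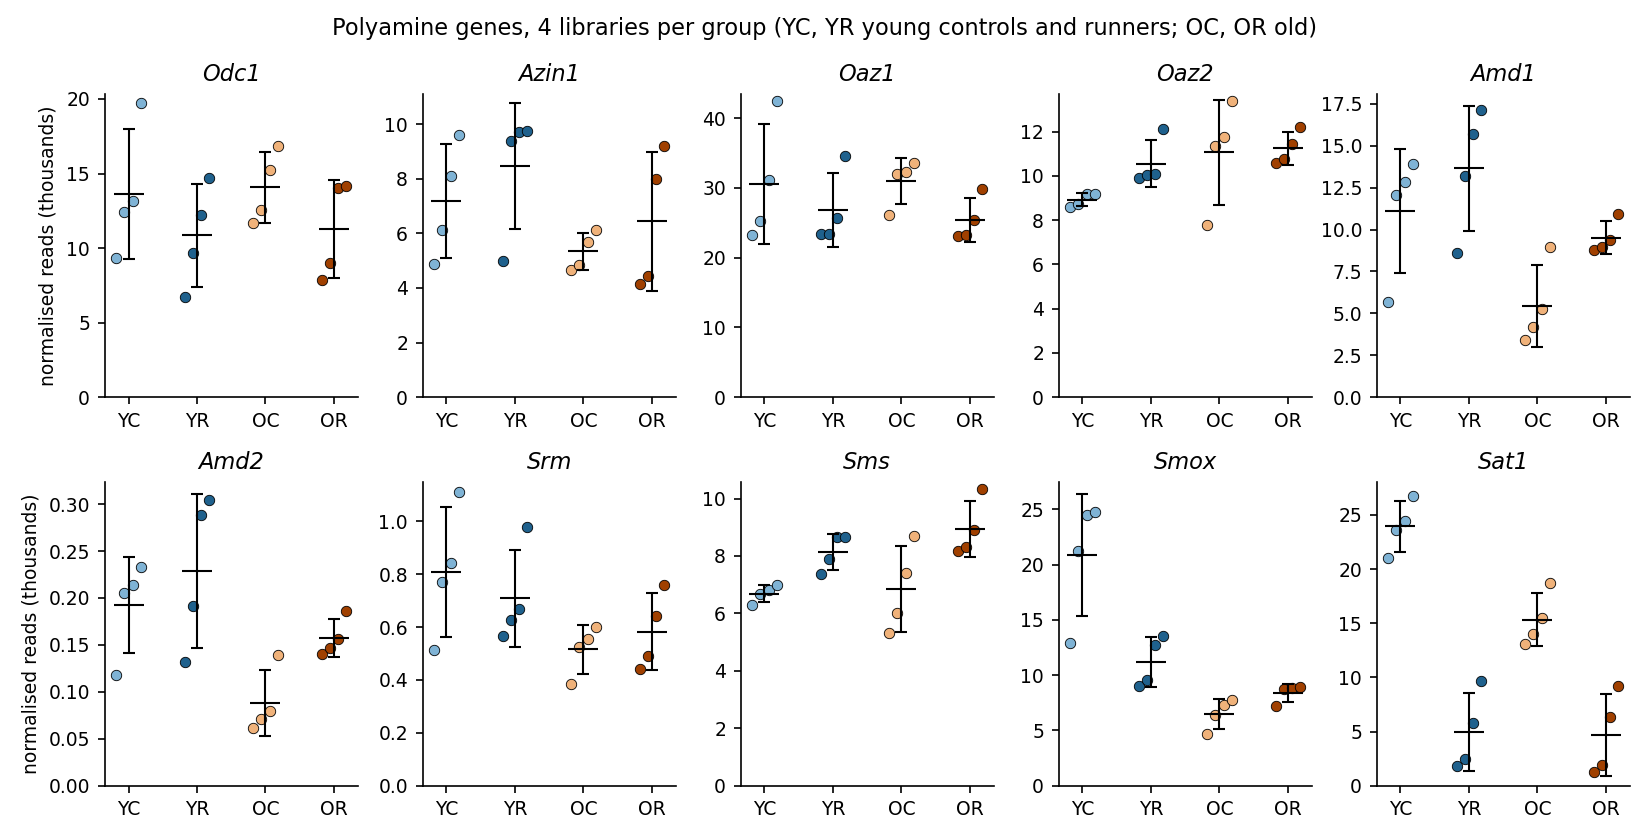
Normalised reads (vertical axes in units of 1000, each starting at 0) of the 10 polyamine genes in young controls (YC), young runners (YR), old controls (OC) and old runners (OR). Points are libraries, horizontal marks group means and bars 1 SD (n = 4); Sat1 is at most 9636 in all 8 runner libraries and at least 13095 in all 8 controls, and Smox is highest in 3 of the 4 young controls.

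The ratio of Smox to Sat1 reads, both enzymes of polyamine breakdown, separated runners from controls in old mice. It was 0.301 to 0.589 in old controls and 0.777 to 6.95 in old runners. In young mice it was 0.614 to 1.04 in controls and 0.939 to 7.45 in runners, and Y1ex, at 0.939, lay within the range of the controls. These ratios restate the values that led to the choice of genes and carry no test.

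Odc1, ornithine decarboxylase and the entry step of synthesis (chromosome 12, 17544794 to 17551505, plus strand), had group ranges that overlapped in every comparison. Young controls held 19717 (Yc4), 12389 (Yc5), 13135 (Yc7) and 9309 (Yc8) normalised reads, and young runners 14728 (Y1ex), 9698 (Y2ex), 6734 (Y3ex) and 12230 (Y4ex). Old controls held 12520 (Oc1), 11706 (Oc2), 15240 (Oc3) and 16836 (Oc4), and old runners 8982 (O1ex), 14006 (O2ex), 14192 (O3ex) and 7879 (O4ex). Yc4 was its highest and Y3ex its lowest library. The difference with running was -0.33 in old mice (SE 0.21, limma adjusted p = 0.432) and -0.33 in young mice (SE 0.27, adjusted p = 0.545), and the latter was -0.14 without Yc4 and -0.13 without Y3ex. In old mice it was -0.19 without O4ex.

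Azin1 encodes the antizyme inhibitor, a relative of ornithine decarboxylase that frees it from antizyme (chromosome 15, 38487427 to 38519266, minus strand). Old runners held 4129 (O1ex), 9197 (O2ex), 7988 (O3ex) and 4448 (O4ex) normalised reads, and old controls 4670 to 6120. The 2 libraries low in Sat1 and Odc1, O1ex and O4ex, were below all 4 old controls in Azin1, and O2ex and O3ex were above all 4. Young runners held 9398 (Y1ex), 9715 (Y2ex), 4997 (Y3ex) and 9734 (Y4ex), and young controls 4889 to 9608. Y3ex had the lowest Sat1, Odc1 and Azin1 of the young runners, and it was the highest of them in every other member. The differences with running were 0.19 (SE 0.24) in old and 0.22 (SE 0.26) in young mice, with limma adjusted p of 0.717 and 0.685, and 0.45 in young mice without Y3ex (adjusted p = 0.299). Leaving out single libraries moved the difference in old mice from 0.00 (without O2ex) to 0.36 (without O1ex), and that in young mice from 0.06 (without Yc8) to 0.45.

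The antizymes bind ornithine decarboxylase and send it to the proteasome. Oaz1 (chromosome 10, 80826656 to 80829290, plus strand) had means of 30543 ± 8636 in young controls, 26800 ± 5330 in young runners, 30976 ± 3302 in old controls and 25382 ± 3172 in old runners (normalised reads, SD, n = 4). Its ranges overlapped in every comparison, and Yc4 was its highest library at 42478. The difference with running was -0.28 in old mice (SE 0.14, limma adjusted p = 0.326) and -0.17 in young mice (SE 0.21, adjusted p = 0.713), and the latter was -0.00 without Yc4 (adjusted p = 1). Oaz2, the second antizyme (chromosome 9, 65668001 to 65690300, plus strand), was 8608 to 9194 in young controls and 9909 to 12133 in young runners. These groups did not overlap, yet the difference was 0.23 (SE 0.13, adjusted p = 0.396) and 0.16 without Y3ex, its highest young runner. Oaz2 was 7765 to 13385 in old controls, a range that held all 4 old runners. Reads of Oaz2 were 20.6% to 49.2% of those of Oaz1 across the 16 libraries.

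Amd1, S-adenosylmethionine decarboxylase, had its lowest levels in old controls. These held 8948 (Oc1), 3427 (Oc2), 5254 (Oc3) and 4213 (Oc4) normalised reads, and old runners 9372 (O1ex), 8808 (O2ex), 8961 (O3ex) and 10934 (O4ex). Oc1 lay within the old runners and the other 3 controls lay below them. The means were 5460 ± 2442 and 9519 ± 973 (SD, n = 4), 1.74 times apart. The difference with running in old mice was 0.84 (SE 0.23, limma adjusted p = 0.136), and without Oc1 Amd1 rose by 1.09 (adjusted p = 0.0155). Leaving out Oc1 also raised the calls over all genes from 12 to 295. Amd1 passed in that 1 of 14 alternatives only, and its limma adjusted p ran up to 0.357. Its difference ran from 0.67 to 1.09 when libraries were left out in turn. Young controls held 5685 (Yc4), 13919 (Yc5), 12832 (Yc7) and 12034 (Yc8), and young runners 8605 (Y1ex), 13186 (Y2ex), 17119 (Y3ex) and 15716 (Y4ex). Yc4 was the lowest of these 8 libraries. The difference with running in young mice was 0.32 (SE 0.30, adjusted p = 0.608) and 0.03 without Yc4. Between controls of the 2 ages Amd1 differed by -0.97 (SE 0.32, adjusted p = 0.289) and by -1.26 without Yc4 (adjusted p = 0.0716).

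Amd2 followed Amd1 from library to library. Its reads were 1.45% to 2.08% of those of Amd1 in all 16 libraries, a narrow band beside the spread of Amd1 itself. In old mice Amd2 passed the filter on low values only through the runners. It had 88 ± 34.8 normalised reads in old controls and 157 ± 20.5 in old runners (SD, n = 4), 1.79 times apart and without overlap. On the compressed deposited scale this was 0.30 (SE 0.16, limma adjusted p = 0.343), against 0.84 in a fit of the recovered reads (SE 0.60, adjusted p = 0.504). How many of these reads came from Amd2 rather than Amd1 was not tested.

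**Figure D2:**
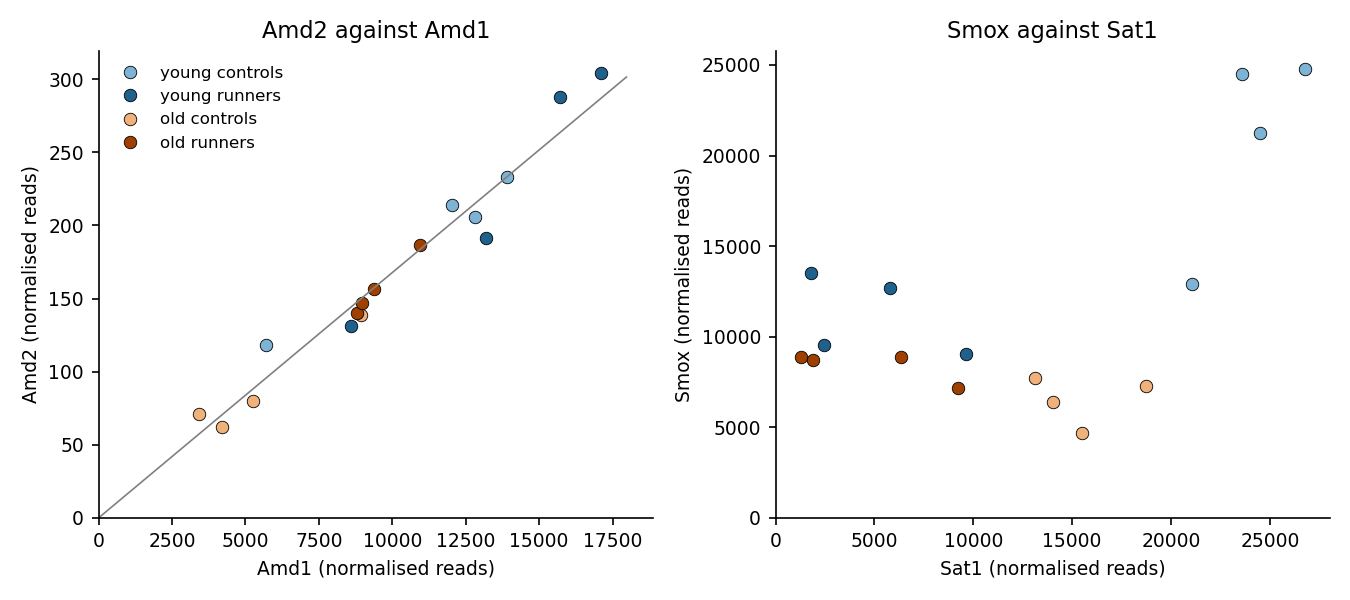
Left, normalised reads of Amd2 against Amd1; right, normalised reads of Smox against Sat1. Each point is a library coloured by group, and the grey line is the ratio of summed Amd2 to summed Amd1 reads; all 16 libraries lie near the line, and in the right panel all runners lie to the left of all controls, 3 of the 4 young controls lie at the top right, and Yc4 lies below them at 12921 Smox reads.

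Neither synthase passed the test in any comparison by limma or voom. Srm, spermidine synthase (chromosome 4, 148591503 to 148594993, plus strand), had 810 ± 246 normalised reads in young controls, 710 ± 184 in young runners, 517 ± 92.5 in old controls and 583 ± 145 in old runners (SD, n = 4). Its groups overlapped in every comparison, and its widest difference was -0.41 between controls of the 2 ages (SE 0.20, limma adjusted p = 0.474). The means of these controls were 1.57 times apart, and the voom fit of reads gave -0.61 (SE 0.27, adjusted p = 0.309). Sms, spermine synthase (chromosome X, 157443855 to 157492287, minus strand), was 6305 to 6981 in young controls and 7362 to 8650 in young runners. All 4 young runners were above all 4 young controls, with a difference of 0.27 (SE 0.13, adjusted p = 0.309). Old controls held 5301 to 8702 and old runners 8190 to 10326, which overlapped, with a difference of 0.39 (SE 0.16, adjusted p = 0.245). Sms was thus higher on average in runners at both ages, by 1.22 times in young and 1.3 times in old mice, without passing the test at either.

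Set per kilobase of exon, the levels of the 10 genes spanned a wide range. In young controls Oaz1 was highest at 11940 ± 3376 normalised reads per kilobase, followed by Sat1 at 8639 ± 851 and Smox at 5356 ± 1420 (SD, n = 4). In old runners Oaz1 was still highest at 9923 ± 1240, and Sat1 was at 1687 ± 1364, below Oaz2 (3762 ± 250), Odc1 (3308 ± 970), Amd1 (2687 ± 275) and Smox (2160 ± 211). Srm was at 323 to 507 per kilobase in the group means, and Amd2 at 27.4 to 71.1, the lowest of the 10 in each group. The exon lengths used include 50-base stretches shared with other genes, 85.7% of those of Amd2 and 78.1% of those of Amd1. The part of this sharing in their levels was not tested. The variation among libraries of a group was widest for Sat1 in runners, with a coefficient of variation of 73% in young and 80.9% in old runners against 9.9% and 16.1% in the controls.

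Counted over the 10 genes, few passed the threshold of an adjusted p under 0.05. With running in old mice 0 of 10 passed by limma or voom, where 0.128% of all genes tested did by limma (12 of 9379). Voom called 0.0428% of all genes fitted there (4 of 9354). Of the 10, 4 (Amd1, Sms, Smox and Sat1) had an unadjusted limma p under 0.05. With running in young mice 1 of 10 passed (Sat1, lower), where 0.762% of all genes did (81 of 10624). Voom called 2 of 10 there (Smox and Sat1), where it called 3.08% of all genes fitted, and 2 of 10 had an unadjusted limma p under 0.05. Between controls of the 2 ages 1 of 10 passed (Smox, lower in old), where 0.112% did (11 of 9831). Voom called 1 of 10 there (Smox), where it called 0.567% of all genes fitted, and 4 of 10 (Amd1, Amd2, Smox and Sat1) had an unadjusted limma p under 0.05. Between runners of the 2 ages 0 of 10 passed, where 0.0213% did (2 of 9387), and for the difference of the running effects 0 of 10 passed, where 0% did. Voom called 0 of 10 in both of these, where it called 0.0214% and 0% of all genes fitted. The unadjusted limma p was under 0.05 in Amd1 and Smox (2 of 10) between runners and in Smox (1 of 10) for the difference of effects. Among all genes 17.4% had an unadjusted limma p under 0.05 with running in old mice and 17.4% in young mice, 11.2% between controls of the 2 ages, 4.91% between runners of the 2 ages and 6.25% for the difference of effects.

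Groups that did not overlap were as follows, over the same comparisons. With running in old mice these were 2 of 10, Amd2 (higher) and Sat1 (lower), where 10.2% of all genes tested had groups apart. Amd2 passed the filter there only through the old runners, at 140 to 186 normalised reads against 61.8 to 139 in old controls. Its count is therefore no support for a rise. With running in young mice 3 of 10 had groups apart, Oaz2 and Sms (higher) and Sat1 (lower), where 11.5% of all genes did. Between controls of the 2 ages Smox and Sat1 were apart, where 7% of all genes were, and between runners none of the 10 was, where 3.38% of all genes were. The median difference of the 10 genes was 0.15, -0.01, -0.38 and -0.17 in these comparisons in turn, and that of all genes tested was 0.03, 0.01, -0.01 and 0. The comparisons share libraries, so their values are not independent of each other. Nothing is read from these counts, since the same contrasts were known when the genes were chosen.

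**Figure D3:**
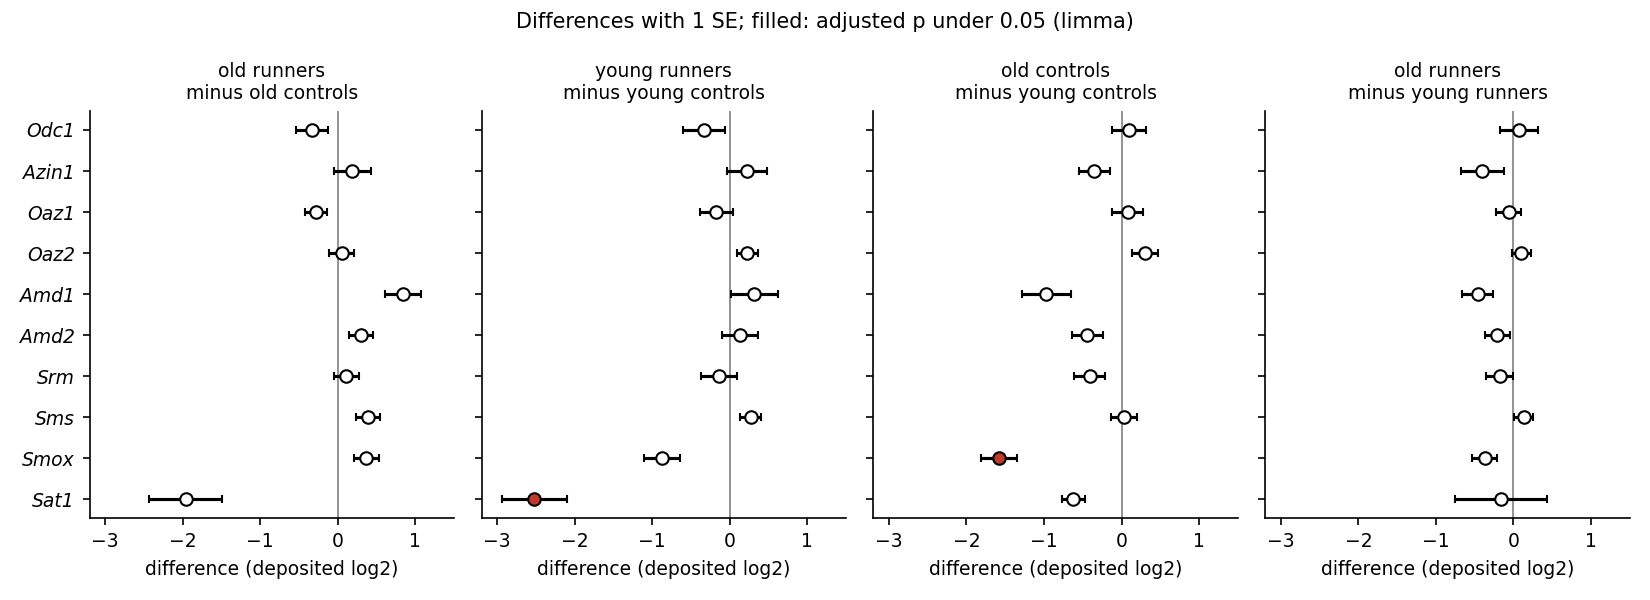
Difference between group means on the deposited log2 scale (horizontal axis) for the 10 genes in the 4 comparisons; bars are 1 SE from limma and filled points have an adjusted p under 0.05. Sat1 lies farthest left with running at both ages (-1.96 and -2.52), and Smox lies farthest left between controls of the 2 ages (-1.58).

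Seen library by library, several genes moved together within a group. O1ex and O4ex were low, and O2ex and O3ex high, in Sat1, Odc1 and Azin1 alike. In Amd1 and Smox the 4 old runners lay close to each other, with coefficients of variation of 10.2% and 9.8%. Yc4 was the lowest young control in Smox, Amd1, Amd2 and Sat1 and the highest in Odc1 and Oaz1. Y3ex was the lowest young runner in Sat1, Odc1 and Azin1 and the highest in every other member.

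**Figure D4:**
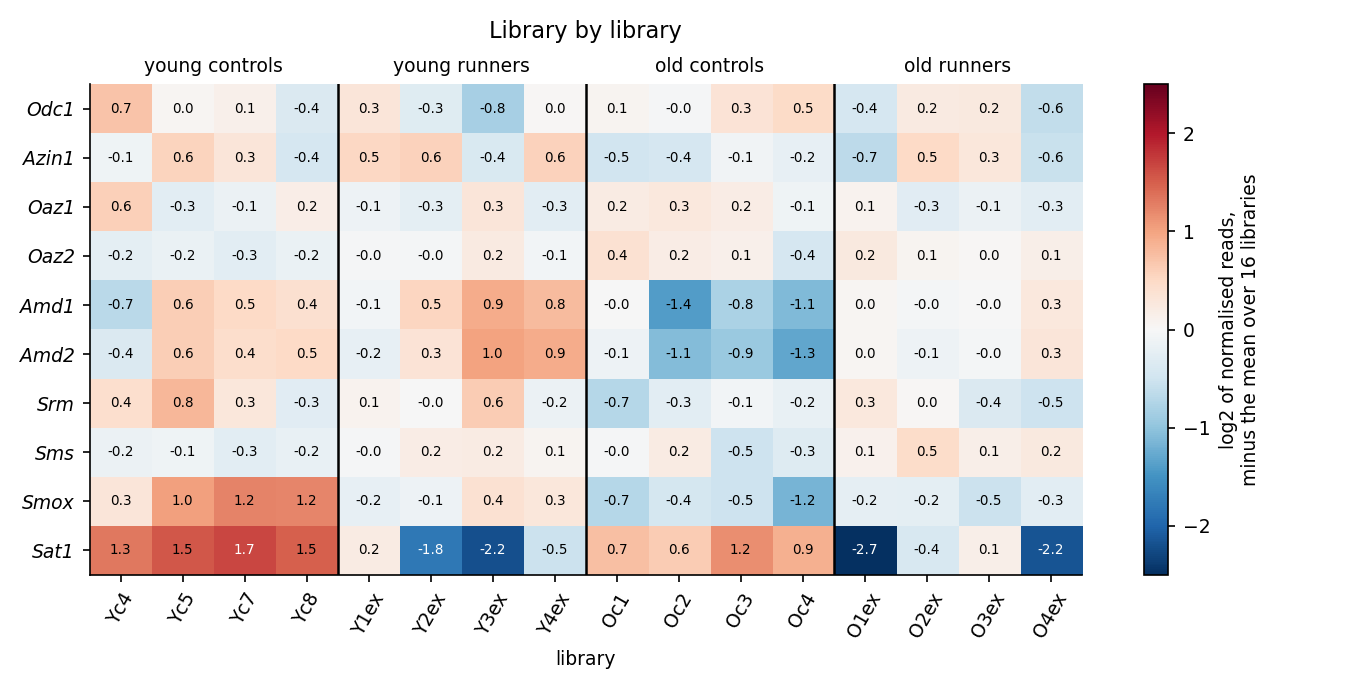
The log2 of normalised reads of each gene (vertical axis) in each library (horizontal axis), minus the mean of that gene over the 16 libraries; red is above and blue below that mean, and vertical lines part the groups. O1ex, O4ex and Y3ex are the darkest blue for Sat1 and are blue for Odc1 and Azin1 too.

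A list of 22 immediate early and stress genes, which respond quickly to many stimuli, was lower on the whole in runners. Its summed level was 17996 to 23419 RPM in young controls and 14787 to 21849 in young runners, and 21161 to 26209 in old controls and 10311 to 17527 in old runners. Of the 21 tested, 20 were lower in old runners (median -0.63) and 14 in young runners (median -0.22). Zfp36, Ier2, Fos and Gadd45b passed the test in old runners, and Dnajb1 and Ddit3 in young runners, all lower; these 6 are named after their values were seen. Of the 8 fibro-adipogenic markers 5 were tested in young mice, all 5 higher in runners and 3 of them past the threshold. The 3 were Dcn, Gsn and Col1a2, named after their values were seen. In old mice 4 of the 8 were tested, all 4 higher and none past the threshold. Over all genes tested 0.762% passed with running in young mice and 0.128% in old mice. A gene near 0 in controls passes the filter only where runners are high, which fixes its sign. Means in young controls and runners were 0.0144 and 6.66 RPM for Col1a2, 0.249 and 5.26 for Col1a1, and 0.722 and 12.9 for Col3a1. They were 1.75 and 39.1 RPM for Dcn, and 4.35 and 77.2 RPM for Gsn. Col1a1 and Col3a1 did not pass. Endothelial markers summed to 6.12 to 18.8 RPM in young controls and 21.3 to 103 in young runners, and overlapped in old mice (10.2 to 98 and 17.4 to 78.2). Markers of smooth muscle and pericytes summed to 1.15 to 11.6 RPM in young controls and 14.7 to 63.9 in young runners, and overlapped in old mice (5.7 to 33.8 and 13.2 to 67.1). The part of the stress genes and of these markers in the lower Sat1 of runners was not tested.

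The genes most like Sat1, Smox and Odc1 over the 16 libraries are given as a description, by Pearson's r of log2 normalised reads among 8921 genes. Points share their library and its depth. For Sat1 they were Taf1d (r = 0.97), which encodes a subunit of the RNA polymerase I initiation complex, the noncoding Gas5 (0.96) and the cyclin L1 gene Ccnl1 (0.96). Taf1d went from 2169 ± 512 to 457 ± 208 normalised reads in young controls and runners, and from 1339 ± 380 to 339 ± 310 in old ones (SD, n = 4). For Smox they were Nrep (0.94), Hacd1 (0.87), which encodes an enzyme of very long chain fatty acid synthesis, and the methyltransferase gene Mettl21c (0.86). Nrep had 15344 ± 4307 normalised reads in young controls and 6293 ± 800 in young runners, 2821 ± 1315 in old controls and 3634 ± 1007 in old runners, the order of groups seen in Smox. The means of Mettl21c had that order too, while Hacd1 was lower in old runners (1756 ± 491) than in old controls (2055 ± 292). For Odc1 they were the kinase gene Map3k8 (0.94), Mustn1 (0.93) and Ypel5 (0.91).

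The other genes of polyamine metabolism were taken from 5 lists, and none of the 40 genes passed the limma test in any comparison. At an unadjusted limma p under 0.05 there were 4 with running in old mice (of 26 tested), 2 with running in young mice (of 28), 4 between controls (of 27), 1 between runners (of 27) and 2 for the difference of effects (of 26). The shares of all genes at that p were 17.4%, 17.4%, 11.2%, 4.91% and 6.25% in turn. A voom fit of 26 of these genes called 1, Oat, with running in young mice and again between controls, and 0 in the other comparisons. Voom called 3.08% and 0.567% of all 9354 genes fitted with running in young mice and between controls. Of 9 genes of arginine and ornithine supply, 4 were tested in old and 5 in young mice. Oat, ornithine aminotransferase, came nearest, at 0.66 with running in young mice (SE 0.14, limma adjusted p = 0.0619) and 0.08 in old mice (SE 0.10, adjusted p = 0.738). Asl, argininosuccinate lyase, differed by 0.51 in young and 0.16 in old mice. Slc7a2, a carrier of cationic amino acids, differed by 0.09 and 0.29. Between controls of the 2 ages Oat was 0.72 higher in old mice (SE 0.14, adjusted p = 0.1). All 4 genes tested in old mice were above 0 with running, with a median of 0.18, and 4 of 5 in young mice, with a median of 0.09. The shares of all genes tested that were above 0 were 54.8% in old and 51.5% in young mice.

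In the supply of S-adenosylmethionine and the salvage of methylthioadenosine, the by-product of both synthases, 8 of 9 genes were tested. In old mice 3 were higher and 5 lower with running (median -0.08), with the smallest p in Apip (-0.34, limma adjusted p = 0.231) and Mat2b (-0.23, adjusted p = 0.353). In young mice 4 were higher and 4 lower (median -0.03), with the smallest p in Adi1 (0.42, adjusted p = 0.236) and Mat2b (-0.31, adjusted p = 0.352). Mat2b, the regulatory subunit of methionine adenosyltransferase, was thus below 0 at both ages, and Adi1, a dioxygenase of the salvage route, was at -0.05 in old mice. Neither passed.

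Among 8 other enzymes and regulators, Paox, the oxidase that acts on acetylated polyamines after Sat1, differed by 0.40 with running in old mice (SE 0.16, limma adjusted p = 0.234) and by 0.21 in young mice (adjusted p = 0.618). Nqo1, a quinone reductase that shields ornithine decarboxylase from degradation, differed by -0.25 and 0.27. The proteasome subunits Psmd4 and Psmd14 were at 0.02 and -0.02 in old mice and at 0.27 and 0.20 in young mice. The median of the list was -0.02 in old mice (5 tested) and 0.20 in young mice (6 tested).

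Of 10 genes of polyamine transport 6 were tested, and all 6 were above 0 with running in old mice, with a median of 0.30. In young mice 3 of 6 were, with a median of 0.12. Over all genes tested 54.8% were above 0 with running in old mice and 51.5% in young mice. Gpc1, a heparan sulphate proteoglycan tied to polyamine uptake, differed by 0.79 in old mice (SE 0.34, limma adjusted p = 0.269) and 0.27 in young mice. Atp13a3, a polyamine transporter, differed by 0.76 (SE 0.28, adjusted p = 0.213) and 0.63 (SE 0.54, adjusted p = 0.573). Slc3a2, the heavy chain of amino acid exchangers, differed by 0.04 and 0.38. None of the 3 passed at either age.

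Spermidine also serves to modify the translation factor eIF5A with hypusine, and 3 of the 4 genes of that list were tested. With running Eif5a differed by 0.06 in old and 0.11 in young mice. Dhps, which transfers part of spermidine to eIF5A, differed by -0.29 (limma adjusted p = 0.342) and -0.06, and Dohh, which completes the modification, by -0.15 and 0.02. The medians were -0.15 in old and 0.02 in young mice.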

How the data were processed

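The 16 RNA-seq libraries were compared from 4 deposited tables, each holding 1 pair of groups. Per the labels' protocols, 10 ng of total RNA was amplified with a SMART-Seq low-input kit, which keeps no strand; reads were trimmed, aligned to mm10 and counted with Trim Galore, with STAR and with featureCounts (Subread), per the submitters' processing notes. Tool versions and the annotation are not given in the sources used here. In unit the deposited files hold log2 values, which the authors made with the variance-stabilising transformation of DESeq2, separately for each table, with a floor (6.73 to 7.69) for genes without reads. Inverting the transformation gave whole reads for 100% of values within a tolerance of 0.02 (largest distance 0.00889), and 307324 values held by 2 tables were equal in both. Normalised reads divide these reads by a median-of-ratios factor over all 16 libraries. The SD between libraries includes counting error, and PCR copies were not removed.

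Each table was fitted with limma 3.58.1 in R 4.3.3 (eBayes with trend, 2-sided) over genes that exceeded the floor by 1 or more in 4 or more libraries, with Benjamini-Hochberg adjustment over all genes tested and a threshold of 0.05. A model over all 16 libraries tested the difference of the running effects. Python 3.11.15 read the tables, and the fit was tested on simulated data. Alternatives were no filter, a filter of 2, median centring, no variance trend, a replicate block, voom on recovered reads and leaving out each library. Of the columns, 10 (all controls, O4ex and Y4ex) match a group but no single sample's title. Positions and exon lengths come from GENCODE M21. The members, lists and tests were chosen with earlier results of these data known. The text names all 10 members, every other polyamine gene that passed and the 2 genes of smallest p per list in each running comparison, and the 3 genes most like Sat1, Smox and Odc1; predicted genes were left out.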

Additional observations from a re-analysis of the deposited data

Results flagged for a closer look

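In 3 of 40 groups of 4 libraries (10 genes in 4 groups) 1 library lay far from the other 3 by Dixon's ratio, the gap to the nearest library divided by the range; each exceeded Dixon's critical value for 4 values. Chance alone gives this in about 1 in 20 groups. Azin1 in young runners had a ratio of 0.929, with Y3ex at 4997 normalised reads and the nearest library at 9398. Oaz2 in young runners had a ratio of 0.925, with the same library highest at 12133 and the nearest at 10076. Smox in old runners had a ratio of 0.887, with O3ex lowest at 7185 and the nearest at 8708.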

How the results depend on the processing

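Of 50 differences (10 genes in 5 comparisons), 40 kept their sign under all alternatives run, and 10 reversed only when single libraries were left out. The ranges of these were -0.10 to 0.15 for Oaz2 with running in old mice; between controls of the 2 ages -0.06 to 0.29 for Odc1, -0.04 to 0.25 for Oaz1 and -0.09 to 0.14 for Sms; between runners -0.13 to 0.22 for Odc1, -0.14 to 0.07 for Oaz1 and -0.58 to 0.25 for Sat1; and for the difference of running effects -0.20 to 0.16 for Odc1, -0.26 to 0.14 for Azin1 and -0.28 to 0.03 for Oaz1. Members called with running in young mice went from 1 to 0 without a filter, 2 by voom and 0 to 2 without single libraries; between controls from 1 to 0 without a filter or trend and 0 to 1 without single libraries. With running in old mice and for the difference of effects they ranged from 0 to 1 without single libraries; between runners they were 0 throughout. Over all genes, calls with running in old mice went from 12 to 7 without a filter, 27 with the stricter one, 23 with centring, 4 without trend or by voom, and 1 to 295 without single libraries (295 without Oc1). In young mice they went from 81 to 24 without a filter, 143 with centring, 47 without trend, 288 by voom and 0 to 181; between controls from 11 to 3 without a filter, 53 by voom and 3 to 52; between runners from 2 to 0 to 3; and for the difference of effects from 0 to 0 to 5. The cause was not tested. With a replicate block, possible for old runners against old controls and against young runners, 0 members and 0 genes passed; same-numbered libraries did not pair (correlations -0.14 to 0.12 and -0.40 to 0.09). Amd2, near the floor, was not kept by the stricter filter. How reads divide between Amd1 and Amd2 was not tested.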
